A study of Mus musculus with 3 samples.

Results

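Heat shock chaperones bind unfolded or newly made proteins and help them fold, refold or reach the proteasome. Cells keep a constitutive set at work at all times and add an inducible set when the transcription factor HSF1 is set free by unfolded protein and binds heat shock elements before their genes. The inducible HSP70 genes Hspa1a and Hspa1b are usually near silent in resting blood cells, while Hspa8 encodes the HSP70 that is made constitutively.

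The levels of 10 chaperone genes, of 32285 features in the count tables, were described across the cells of peripheral blood (PB) in leukemia: Hspa1a, Hspa1b, Hsph1, Dnajb1, Bag3, Dnaja1, Hsp90aa1, Hspa8, Hspd1 and Hspe1. The genes were chosen by name, with the rise of Hspa1a and Hspa1b from naive to D14 in ncMono-like cells of these same libraries already known, so that rise is given as a description. PB leukocytes of wild type Balb/C mice were measured by single cell RNA-seq in 3 libraries, 1 from a naive mouse sample and 1 each at D11 and D14, in days after engraftment of BBC2 cells. BBC2 is a single leukemia line, with a pro-B-cell-like phenotype, derived from stem cells that carried the BCR-FGFR1 fusion gene of stem cell leukemia/lymphoma (SCLL). All 3 blood samples went through red cell lysis and dead cell removal, and the host mice kept their own immune cells. By the study's methods the engrafted mice were female and 6 to 8 weeks old, and the number of mice in each library is not given in the sources used here. Since each condition is 1 library, nothing was tested, and differences between conditions cannot be told apart from differences between libraries.

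Of 5386 naive, 8536 D11 and 9337 D14 barcodes, with 30362408, 57640396 and 65861863 unique molecular identifiers (UMIs, each 1 captured RNA molecule), 3811, 4567 and 4414 were kept, with 200 or more genes found and no more than 10% of their UMIs mitochondrial. Libraries shared 12 to 18 barcodes. Each barcode was placed in a class when it held UMIs of at least 3 markers of that class and of fewer markers of any other. There were 154, 231 and 670 nonclassical monocyte-like (ncMono-like) cells at naive, D11 and D14, 154, 256 and 138 classical monocyte-like (cMono-like) cells, and 1393, 1750 and 1401 neutrophil-like cells. Lymphoid classes were smaller in the leukemic libraries, from 1338 to 116 T-like cells, from 197 to 53 NK-like cells and from 410 to 47 B-like cells between naive and D14. Cells with pro-B markers (proB leukemia-like), called leukemia cells below, numbered 113 and 799 at D11 and D14. In the naive library, which had no engrafted cells, 3 barcodes passed the same gate. Passing it thus does not by itself mark a leukemia cell. All 10 ncMono markers were found in at least 10% of ncMono-like cells in each library, and 8 of 10 pro-B markers in the leukemia cells. These markers set the gates, so their presence is no check of what the cells are. By the same measure 7, 6 and 9 of the 10 ncMono markers were found in cMono-like cells at naive, D11 and D14. Levels are UMIs of a gene for every 1000000 UMIs of the class (CPM), with 95% intervals that cover counting error only.

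Hspa1a (ENSMUSG00000091971) lies on chromosome 17 at chr17:34969190-34972156 and Hspa1b (ENSMUSG00000090877) at chr17:34956436-34959238, both on the minus strand of GRCm38 and both with 1 exon, with 9951 bases between them. Their coding parts were identical at 99.6% of aligned bases, whereas the 3′ parts after the stop codon were identical at 71.6% of 578 aligned bases. None (0) of the 451 windows of 50 bases in the last 500 bases of either transcript was found in the other, so 3′ reads of this kind can tell the genes apart, though reads from the coding part could be split between them. The 150 bases before each start are shown because both genes took the same order of libraries in most classes. They differ at 1 base (RefSeq, GRCm38.p6, minus strand, chr17:34972157-34972306 and chr17:34959239-34959388), and the capitals mark a GAANNTTC run, in which a GAA and a TTC unit of the heat shock element are separated by 2 free bases.
Hspa1a: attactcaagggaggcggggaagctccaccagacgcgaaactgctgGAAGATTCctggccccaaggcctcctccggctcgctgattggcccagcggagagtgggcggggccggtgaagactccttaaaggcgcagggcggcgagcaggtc
Hspa1b: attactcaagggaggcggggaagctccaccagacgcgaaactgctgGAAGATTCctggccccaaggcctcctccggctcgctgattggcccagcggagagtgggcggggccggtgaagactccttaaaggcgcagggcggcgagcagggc

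Runs of alternating GAA and TTC units (GAANNTTC or TTCNNGAA, extended by the same spacing and read alike on both strands) were searched in RefSeq windows from 250 bases before to 50 bases after each start. Entries matched 8 of the 10 genes, all but Hspa8 and Hsp90aa1. A run of at least 2 units was found for 7 of the 8, against 17.0% of 26994 genes, and a run of at least 3 units for Hsph1, Hspd1 and Hspe1, against 0.663% of genes. Hspd1 and Hspe1 face away from each other on chromosome 1 (chr1:55077835-55088243, minus strand, and chr1:55088132-55091307, plus strand) and overlap by 112 bases at their starts. Near these starts lies 1 run of 4 units, shown on the plus strand (chr1:55088049-55088086), 89 to 72 bases before a start of Hspe1 and 144 to 127 bases before 1 start of Hspd1. Only 8 of 32817 windows of this length held 4 units or more, and 2 of the 8 are these windows. The stretches of Dnaja1 (chr4:40722334-40722361, plus strand) and Hsph1 (chr5:149636287-149636310, minus strand, after the start) are shown for comparison, with the units in capitals. These matches describe letters, not binding.
Hspe1 and Hspd1: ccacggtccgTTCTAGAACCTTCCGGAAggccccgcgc
Dnaja1: aaagcctctaGAAAATTCtacgaggctc
Hsph1: atgctgcagaTTCTGGAAAGTTCt

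The inducible pair Hspa1a and Hspa1b, whose products are nearly the same HSP70 protein, had the 2 largest ratios of D14 over naive among the 10 genes in each of the 6 immune classes compared. In ncMono-like cells the summed pair stood at 13.1 CPM (7.75 to 20.7, 18 UMIs) in the naive library, 324 CPM (301 to 349, 705 UMIs) at D11 and 1157 CPM (1132 to 1182, 8234 UMIs) at D14. The 3 intervals do not overlap and the order naive, D11, D14 held for each gene alone. Hspa1a alone had 7.27, 147 and 487 CPM and Hspa1b 5.81, 178 and 670 CPM. The log2 ratio of the sum was 4.63 (3.96 to 5.40) at D11 over naive, 6.47 (5.81 to 7.22) at D14 over naive and 1.83 (1.72 to 1.95) at D14 over D11. On the log2 scale most of the difference was therefore already present at D11.

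The same order of libraries was found in each of the other immune classes compared. In cMono-like cells the pair stood at 18.2, 121 and 486 CPM at naive, D11 and D14 (log2 ratio of D14 over naive 4.74, 4.27 to 5.26). Neutrophil-like cells were lower, at 9.64, 31.8 and 135 CPM (log2 3.81, 3.40 to 4.25). Among lymphocytes, T-like cells held 2.20, 23.9 and 165 CPM (6.23, 5.64 to 6.88), NK-like cells 3.75, 42.0 and 157 CPM (5.39, 4.18 to 6.90) and B-like cells 1.54, 20.5 and 121 CPM (6.30, 4.86 to 8.23). The naive lymphoid values rest on 27, 6 and 4 UMIs, which is why their intervals are wide. The leukemia cells, with too few naive barcodes to compare, went from 8.62 CPM (5.73 to 12.5) at D11 to 46.6 CPM (44.0 to 49.4) at D14, a log2 ratio of 2.43 (1.90 to 3.03). Erythroid-like cells, which make almost only hemoglobin, had 0 UMIs of the pair in the naive library, where the floor of 3 counts is 5.54 CPM. They stood at 1.12 and 7.75 CPM at D11 and D14. The D11 value lies under that naive floor, so the order of naive and D11 cannot be told in this class.

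**Figure D1:**
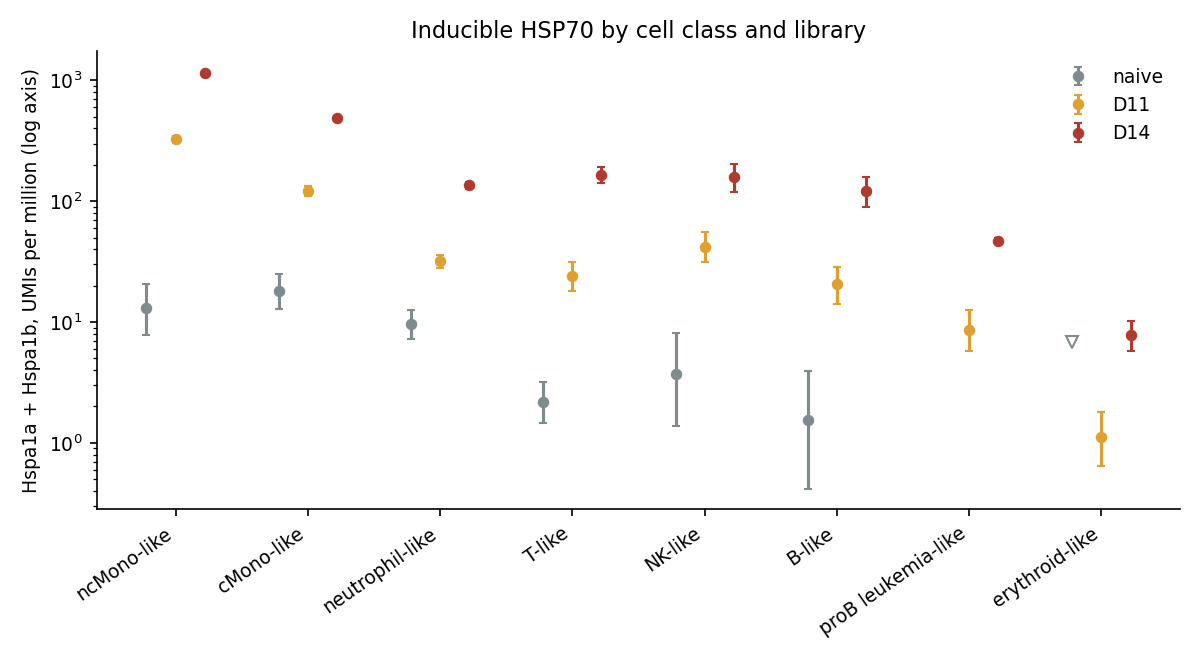
Summed level of Hspa1a and Hspa1b (CPM, log axis) in 8 cell classes for the naive, D11 and D14 libraries, as points with 95% Poisson intervals. ncMono-like cells reach 1157 CPM at D14 and leukemia cells 46.6 CPM, and within each class with UMIs in all libraries the order is naive, D11, D14.

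The classes were then compared within each library. In the naive library the ratio of ncMono-like to cMono-like cells was 0.720 with an interval (0.385 to 1.30) that holds 1, whereas it was 2.68 at D11 and 2.38 (2.25 to 2.52) at D14. At D14 the order was ncMono-like, cMono-like, then T-like, NK-like, neutrophil-like and B-like cells with overlapping intervals, then leukemia and erythroid-like cells. The level in ncMono-like cells was 8.56 times that in neutrophil-like cells and 6.99 times that in T-like cells. The leukemia cells had the lowest level of the pair at D14 of the white cell classes compared, with a ratio to ncMono-like cells of 0.0403.

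How many ncMono-like cells held the pair also differed between libraries. A UMI of Hspa1a or Hspa1b was found in 9.74%, 57.6% and 79.6% of ncMono-like cells at naive, D11 and D14, and after each cell was thinned to 1000 UMIs in 2.61%, 21.2% and 51.3%. Median UMIs per ncMono-like cell were close, at 8204, 8596 and 9435. The median ncMono-like cell had 0, 104 and 763 CPM, and the 10% of cells with most UMIs of the pair held 59.3% of them at D11 and 33.8% at D14. The signal was thus spread over most ncMono-like cells at D14 and over fewer at D11. At D14, 78.4% of ncMono-like cells with a UMI of Hspa1b also had one of Hspa1a, against 27.1% of those without.

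In the other classes the cells with the pair were a minority at matched depth. Thinned to 1000 UMIs, 27.5% of cMono-like, 6.92% of neutrophil-like, 11.2% of T-like, 13.2% of NK-like and 12.8% of B-like cells had a UMI at D14. The values at naive were 1.30%, 0.949%, 0.15%, 0.51% and 0.245% in the same order. The cMono-like cells were deeper at D14, with median UMIs of 12721.5, 13671 and 20586.5, and their share before thinning was 14.9%, 44.5% and 68.8%. Before thinning, 13.9% of neutrophil-like, 32.8% of T-like, 37.7% of NK-like and 38.3% of B-like cells had a UMI at D14. Cells with fewer than 1000 UMIs were left out of the thinned shares, 23, 64 and 158 neutrophil-like cells at naive, D11 and D14 and at most 8 cells of any other class compared, in any library. Leukemia cells, with medians of 24816 and 30301 UMIs, had a UMI of the pair in 15.9% of cells at D11 and 41.6% at D14, but in 1.79% and 4.55% after thinning. As a background for free RNA, erythroid-like cells, with a median of 6114 UMIs at D14, had one in 4.07% of cells and in 1.29% after thinning. Their median share of hemoglobin UMIs was 90.2%, so thinning left few UMIs of other genes. Their thinned share is therefore lowered and not at matched depth with those of the other classes.

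**Figure D2:**
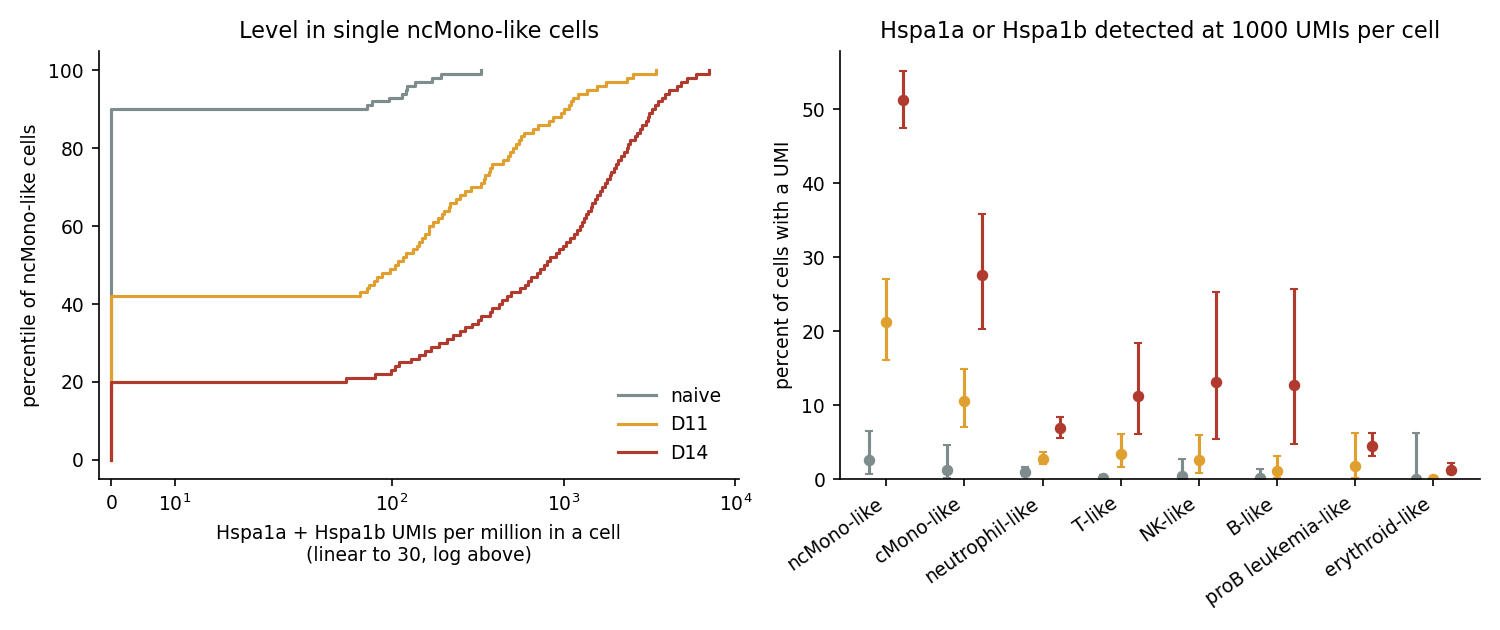
Left, percentiles of ncMono-like cells against the level of Hspa1a and Hspa1b in a cell (CPM, linear at the low end and log above, as marked) for each library. Right, percent of cells of each class with a UMI of either gene after thinning to 1000 UMIs, with 95% binomial intervals, reaching 51.3% in ncMono-like cells at D14.

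Several measures that could move with these levels were set beside them. RNA of broken ncMono-like cells was followed through Ear2, Fabp4, Cd36, Grk3 and Lilra5, chosen after the data were seen as genes high in ncMono-like cells and not used in the gates. At D14 their summed level in T-like, NK-like and leukemia cells was 0.303%, 0.167% and 0.552% of that in ncMono-like cells, whereas the level of the Hspa1 pair there was 14.3%, 13.6% and 4.03%. In cMono-like cells the shares of the 5 genes and of the pair were 14.3% and 42.0%. In neutrophil-like cells the shares were 3.34% and 11.7%, in B-like cells 5.81% and 10.5%, and in erythroid-like cells 1.73% and 0.670%. Both erythroid-like shares are lowered by the hemoglobin UMIs in the total of that class. The share was higher for the pair than for the 5 genes in each of these classes but the erythroid-like one, and the part of free RNA in the levels was not tested.

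Mitochondrial UMIs, a sign of cell quality, had a median of 0.207% in naive and 0.939% in D14 neutrophil-like cells, and of 1.57% and 1.92% in ncMono-like cells. In ncMono-like cells with at most 1%, 1 to 2% and over 2% mitochondrial UMIs the pair stood at 1366, 1335 and 944 CPM at D14, against 13.8 CPM, 18.1 CPM and 0 UMIs in naive. In neutrophil-like cells it stood at 132, 160 and 127 CPM in these strata at D14, against 8.92, 13.4 and 12.2 CPM in naive. D14 was above naive in each stratum, and the part of mitochondrial share in the size of the difference was not tested. The markers of other classes in ncMono-like cells also moved. Neutrophil markers summed to 541, 626 and 302 CPM and pro-B leukemia markers to 32.0, 60.3 and 230 CPM at naive, D11 and D14. In cMono-like cells progenitor markers summed to 32.3, 83.3 and 277 CPM and neutrophil markers to 329, 363 and 403 CPM. Other neutrophil genes, not used in the gates, summed to 171, 1421 and 5855 CPM in cMono-like cells. In neutrophil-like cells pro-B leukemia markers summed to 32.1, 131 and 334 CPM at naive, D11 and D14. The part of these markers and genes in the results was not tested. Immediate early genes, which rise fast when cells are disturbed and would mark unequal handling of the blood, had a median log2 ratio of D14 over naive of -0.01 in ncMono-like cells over the 13 of 16 genes at 50 CPM or more, with 1 at least 2-fold higher and 1 at least 2-fold lower. That median was -0.65 in cMono-like, -0.23 in neutrophil-like, 0.45 in T-like and 0.65 in NK-like cells. The part of handling in the result was not tested beyond these values.

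The 2 genes of the pair did not share the UMIs evenly, and the balance differed between classes. At D14 Hspa1a made up 42.1% (41.0 to 43.1) of the pair in ncMono-like cells, 54.6% (52.0 to 57.1) in cMono-like cells, 30.6% (27.6 to 33.6) in neutrophil-like cells and 12.6% (10.8 to 14.7) in leukemia cells. None of these 4 intervals overlap. In T-like, NK-like and B-like cells the share was 28.2%, 37.5% and 37.3%. At D11 the values were 45.2% in ncMono-like and 50.4% in cMono-like cells, with intervals that overlap, 32.4% in neutrophil-like cells, and 7.14% in leukemia cells from only 28 UMIs. A share of the pair does not depend on how many UMIs a class holds, but it can depend on how 3′ ends were assigned.

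**Figure D3:**
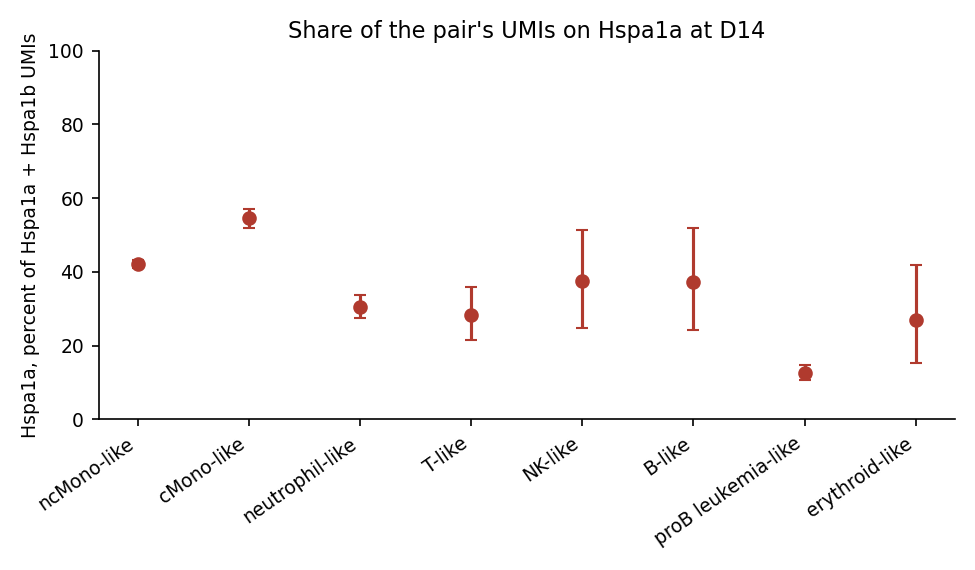
Percent of the pair's UMIs that fell on Hspa1a at D14 in each class (vertical axis, 0 to 100%), as points with 95% exact binomial intervals. The share runs from 12.6% in leukemia cells to 54.6% in cMono-like cells.

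Hsph1 and Dnajb1 act with HSP70, the first as an HSP110 nucleotide exchange factor and the second as an HSP40 that hands over clients. Hsph1 (chr5:149614287-149636376) stood at 29.1, 61.2 and 131 CPM in ncMono-like cells at naive, D11 and D14 (log2 D14 over naive 2.17, 1.71 to 2.66), so that D14 was also 2.13 times D11. It was close to flat in cMono-like cells, at 19.7, 22.2 and 27.0 CPM (0.46, -0.11 to 1.05). This differs from Hspa1a and Hspa1b, which were higher at D14 in both monocyte classes. In T-like, NK-like and B-like cells Hsph1 went from 51.2, 45.6 and 28.8 CPM in naive to 117, 152 and 133 CPM at D14, and neutrophil-like cells from 2.46 to 11.4 CPM. Leukemia cells had 139 CPM at both D11 and D14 (log2 0.01, -0.14 to 0.15), close to the 131 CPM of ncMono-like cells at D14. Dnajb1 (chr8:83608193-83612653) stood at 35.6, 60.3 and 75.3 CPM in ncMono-like cells (1.08, 0.66 to 1.53) and at 31.8, 46.8 and 35.9 CPM in cMono-like cells (0.18, -0.28 to 0.65). It was higher at D14 in the other 4 immune classes, with log2 ratios from 0.86 in neutrophil-like to 1.59 in NK-like cells. In leukemia cells Dnajb1 did not differ beyond counting error (45.0 and 42.3 CPM, log2 -0.09). That ratio ran from -0.12 to 1.18 under other settings, with 10 of 12 in the same direction.

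Bag3, an HSP70 cochaperone that routes damaged proteins to selective autophagy, was highest in the monocyte-like classes among the immune classes compared. In ncMono-like cells it stood at 37.1 and 35.4 CPM in naive and D11 and at 72.1 CPM at D14 (log2 D14 over naive 0.96, 0.54 to 1.40, and 2.12 when cells were thinned). Its naive and D11 levels did not differ beyond counting error (log2 -0.06, -0.59 to 0.48). The Hspa1 pair, by contrast, was higher at D11 than naive and higher again at D14. In cMono-like cells Bag3 stood at 17.7, 26.8 and 38.2 CPM (1.12, 0.56 to 1.70). T-like cells had 9.19 to 18.3 CPM and neutrophil-like cells at most 4.62 CPM. B-like cells held 5, 6 and 1 UMIs and leukemia cells 0 UMIs at D11 and 4 UMIs in 24992398 at D14. Leukemia cells thus held the Hspa1 pair and Hsph1 with almost no Bag3.

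Dnaja1, a constitutive HSP40 partner of HSP70, differed little. In ncMono-like cells it stood at 221, 322 and 280 CPM (log2 D14 over naive 0.34, 0.17 to 0.52), highest at D11. In cMono-like and T-like cells the intervals of D14 over naive held no change (0.02, -0.16 to 0.21, and -0.03, -0.21 to 0.14), while D11 was the highest library in both. In leukemia cells Dnaja1 stood at 460 and 390 CPM at D11 and D14 (-0.24, -0.32 to -0.16), a direction that turned to 0.044 when cells were thinned to 1000 UMIs. Hsp90aa1, the stress-responsive cytosolic HSP90, held 267, 430 and 398 CPM in ncMono-like cells (0.57, 0.42 to 0.73), at 143, 202 and 256 CPM in cMono-like cells. Neutrophil-like cells held 123, 164 and 224 CPM. Its log2 ratio lay between 0.57 and 1.21 in all 6 immune classes, highest in B-like cells (206, 410 and 477 CPM). In leukemia cells it was the other way round, 1137 CPM at D11 and 880 CPM at D14 (-0.37, -0.42 to -0.32).

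Hspa8, the constitutive HSP70, was found in 91.6% of ncMono-like cells of naive mice. It stood at 689, 975 and 940 CPM in ncMono-like cells (log2 0.45, 0.35 to 0.55) and at 1223, 1191 and 1540 CPM in cMono-like cells (0.33). T-like cells held 634, 740 and 661 CPM (0.06, -0.06 to 0.18), and leukemia cells 1724 and 1341 CPM. In ncMono-like cells the inducible pair together had fewer UMIs than Hspa8 in the naive and D11 libraries and more at D14 (8234 against 6693), a comparison of 3′ UMI counts and thus of molecules captured, not of length-scaled levels.

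Hspd1 and Hspe1 encode HSP60 and its lid HSP10, the folding chamber of mitochondria, and share the start region shown above. In ncMono-like cells they were close to flat, Hspd1 at 63.2, 70.4 and 80.1 CPM (log2 0.34, 0.01 to 0.68) and Hspe1 at 71.2, 73.1 and 85.3 CPM (0.26, -0.05 to 0.58). In cMono-like cells the log2 ratios were 0.31 and 0.16. T-like cells went the other way, with Hspd1 at 99, 94.3 and 76.1 CPM (-0.38, -0.74 to -0.04) and Hspe1 at 169, 129 and 115 CPM (-0.56, -0.84 to -0.28). The lower Hspd1 was not seen among CD4 T-like cells, at 98.2 CPM in naive and 104 CPM at D14. Among CD8 T-like cells it went from 104 to 59.8 CPM, the latter from 18 UMIs. Hspe1 went from 153 to 120 CPM among CD4 and from 247 to 120 CPM among CD8 T-like cells, with intervals that overlap in CD4 only. In neutrophil-like cells Hspd1 stood at 8.31, 16.3 and 28.6 CPM (1.78, 1.30 to 2.29) and Hspe1 at 9.26, 13.8 and 25.4 CPM (1.46, 0.99 to 1.94). Those neutrophil-like ratios depended on the choice of cells, since Hspd1 and Hspe1 came to 0.77 and 0.36 with doublets removed and to 0.61 and 1.12 with cells of a single class only, and 1 cell held 28 of the 198 Hspd1 UMIs at D14. Pro-B leukemia markers in neutrophil-like cells summed to 32.1 CPM in naive and 334 CPM at D14, and their part in these ratios was not tested. In B-like cells the log2 ratios were 0.74 (0.24 to 1.21) and 0.85 (0.48 to 1.21), and in NK-like cells 0.24 (-0.30 to 0.75) and -0.14 (-0.71 to 0.39). Both genes thus had ratios below no change in T-like cells and above it in neutrophil-like and B-like cells, and neither differed beyond counting error in NK-like cells. The ratio of Hspe1 in ncMono-like cells turned to -0.11 with cells of a single class only.

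The number of immature cells among neutrophil-like cells also differed between libraries, with 24, 217 and 532 cells that passed the immature gate and 1369, 1533 and 869 others. Summed Hspd1 and Hspe1 stood at 19.98, 26.1 and 56.6 CPM in immature and at 17.5, 31.3 and 50.4 CPM in the other neutrophil-like cells, where the immature naive value rests on 5 UMIs and its interval holds the D11 value. The Hspa1 pair stood at 11.99, 13.4 and 116 CPM in immature and at 9.52, 37.6 and 162 CPM in the others. The immature naive value of the Hspa1 pair rests on 3 UMIs, which is the floor, and its interval holds the D11 value. The order of naive and D11 thus cannot be told for that pair in immature cells. CD4 and CD8 T-like cells did not differ in the pair beyond counting error, at 145 and 146 CPM at D14 and 2.37 and 2.18 CPM in naive.

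Leukemia cells were the class richest in the mitochondrial pair. Summed Hspd1 and Hspe1 stood at 1287 CPM at D11 and 940 CPM at D14, which is 8.97 and 5.68 times the level in ncMono-like cells and 5.87 and 3.05 times that in B-like cells of the same library. Both genes were lower at D14 than at D11, Hspd1 at 651 and 456 CPM (log2 -0.51, -0.58 to -0.45) and Hspe1 at 636 and 484 CPM (-0.39, -0.46 to -0.33). Cycling leukemia cells, set by a gate of cell cycle genes, held more than the others at D14, 1006 against 652 CPM, over 574 and 225 cells with medians of 35024 and 21270 UMIs. Hspa8 (1406 against 1055 CPM) and Hsp90aa1 (933 against 649 CPM) followed the same order. The summed Hspa1 pair did not, at 45.2 CPM in cycling and 52.8 CPM in other leukemia cells with intervals that overlap. Within the pair, Hspa1a was lower in cycling cells, at 4.53 CPM (3.65 to 5.55) against 11.8 CPM (8.86 to 15.3) in other leukemia cells. Hspa1b was close to equal, at 40.7 CPM (37.9 to 43.5) in cycling and 41.1 CPM (35.5 to 47.3) in other leukemia cells.

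**Figure D4:**
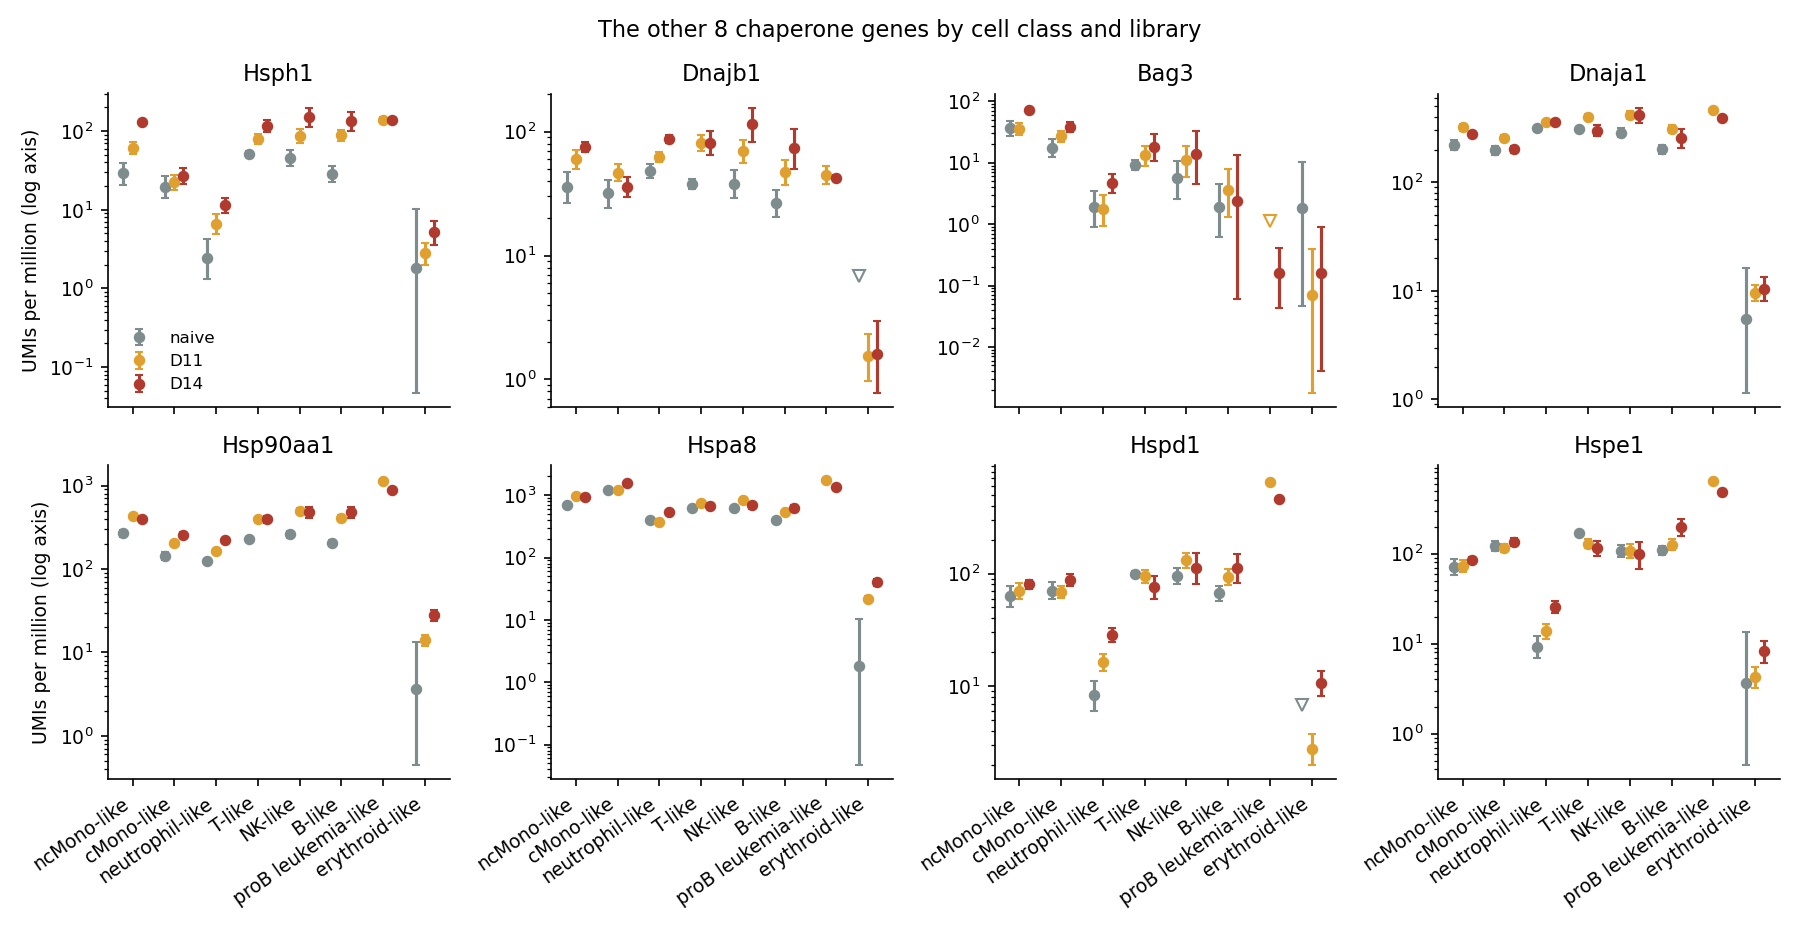
Levels of the 8 chaperone genes other than Hspa1a and Hspa1b (CPM, log axes that differ between panels) by cell class for the naive, D11 and D14 libraries, with 95% Poisson intervals and open triangles for the upper limit at 0 UMIs. At D14 Hsph1 reaches 131 CPM in the ncMono-like class, and Hspd1 and Hspe1 are highest in leukemia cells.

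The list was also counted as a whole. At 50 CPM or more in either library, 4 of 10 members were at least 2-fold higher at D14 than naive in ncMono-like cells (Hspa1a, Hspa1b, Hsph1 and Dnajb1), where 3.03% of all genes were. Since the genes were chosen with this contrast known, nothing is read from that count. Dnajb1 (log2 1.08) was the member just past 2-fold and Bag3 (0.96) the one just short of it. The count was 2 of 7 in cMono-like cells (4.16% of all genes), 1 of 5 in neutrophil-like cells (7.4%), 3 of 8 in T-like cells (5.43%), 4 of 9 in NK-like cells (2.76%) and 4 of 8 in B-like cells (7.61%). A gene could pass the minimum through D14 alone, as all 4 counted members did in ncMono-like and in NK-like cells. Nothing is read from the counts of the other classes either. In neutrophil-like cells 6 of the 10 were 2-fold higher when no minimum was set. The share of all genes without a minimum was not computed, so nothing is read from that count. With no minimum set, the median log2 ratio of the 10 members was 0.77 in ncMono-like, 0.40 in cMono-like, 1.37 in neutrophil-like, 0.88 in T-like, 1.11 in NK-like and 1.03 in B-like cells. Medians over all genes lay between -0.23 and 0.08, but over genes at 50 CPM or more in either library. Only 5 of the 10 members reached that minimum in neutrophil-like cells, so the 2 kinds of median are not over like sets.

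At D11 over naive fewer members passed than at D14 in each class but the cMono-like one. The count was 3 of 9 in ncMono-like cells (0.761% of all genes), 2 of 7 in cMono-like cells (0.698%), 0 of 4 in neutrophil-like cells (1.58%), 1 of 7 in T-like cells (3.74%), 0 of 7 in NK-like cells (0.538%) and 1 of 6 in B-like cells (0.855%). Hspa1a and Hspa1b were under the minimum, and so not counted, in neutrophil-like, T-like, NK-like and B-like cells at D11. In leukemia cells 0 of 6 members were at least 2-fold higher at D14 than at D11 (1.92%). The 6 leave out Hspa1a and Hspa1b, which were under the minimum at 5.88 and 40.7 CPM at D14, with log2 ratios of 3.26 and 2.35. Nothing is read from these counts. Over all 10 members the median was -0.30, with Bag3 entered at a lower bound of -2.53 from 0 UMIs at D11 and 4 at D14. The median is thus a lower bound too, and Bag3 was not shown to be lower at D14. Intervals lay above no change for Hspa1a and Hspa1b and below it for Dnaja1, Hsp90aa1, Hspa8, Hspd1 and Hspe1, and they held it for Hsph1 and Dnajb1.

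**Figure D5:**
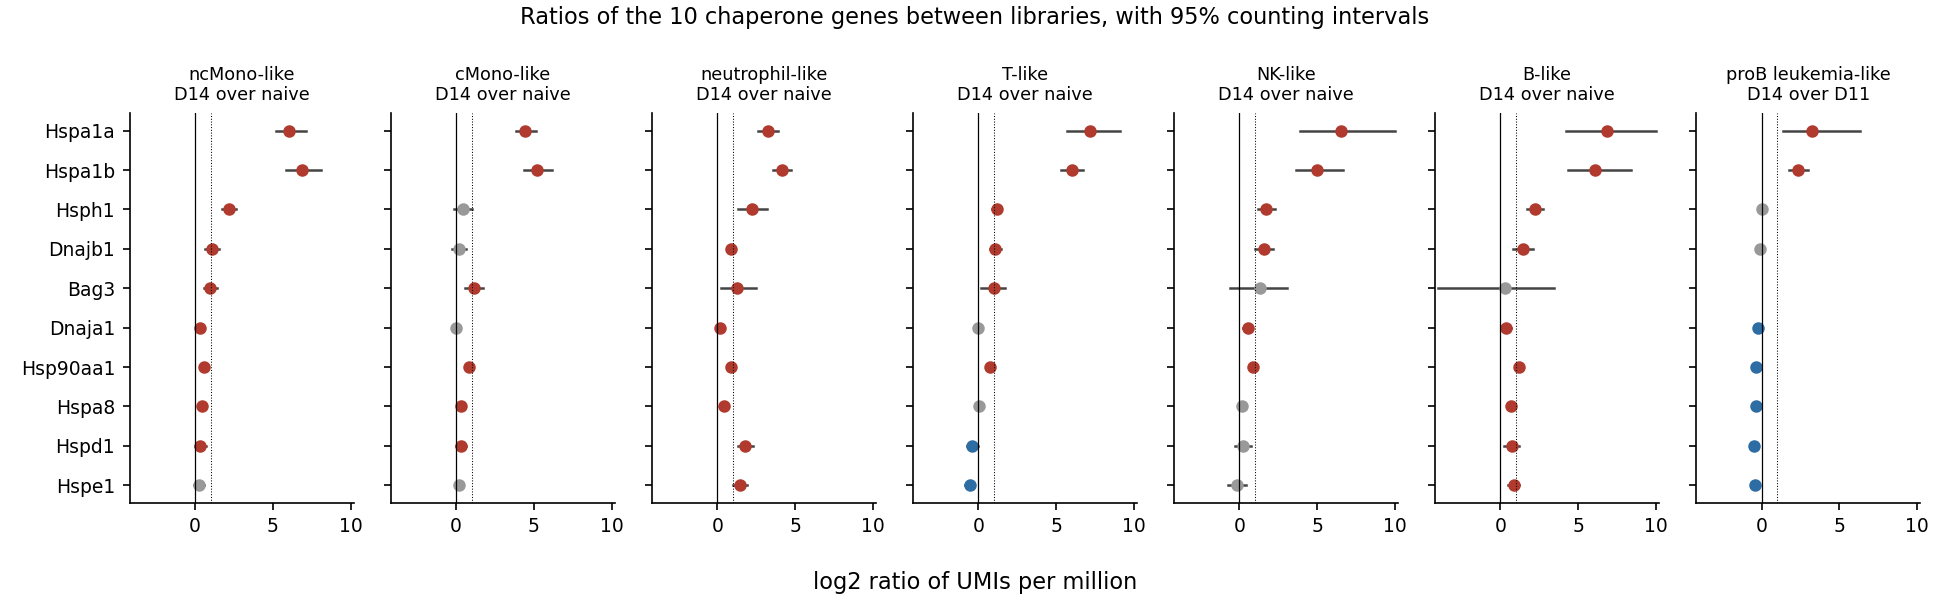
Log2 ratios of CPM for the 10 genes, D14 over naive in 6 immune classes and D14 over D11 in leukemia cells, with 95% intervals (red above and blue below no change, grey where the interval holds it, dotted line at 2-fold; 3 intervals in NK-like and B-like cells run past the axis). Hspa1a and Hspa1b stand to the right in every panel, and 5 genes are blue in leukemia cells.

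Within ncMono-like cells at D14, cells with a UMI of the Hspa1 pair were compared with those without after thinning to 1000 UMIs, 342 and 325 cells. Hsph1 was found in 13.7% (10.3 to 17.9) of the former and 5.85% (3.56 to 8.98) of the latter, and Bag3 in 11.99% (8.74 to 15.9) and 4.0% (2.15 to 6.74). These intervals do not overlap. For Dnajb1 (9.06% and 5.54%), Hsp90aa1 (35.7% and 26.8%), Hspd1 (6.73% and 8.62%) and Hspe1 (6.43% and 5.54%) they do. At D11, with 49 and 182 cells, Dnajb1 was found in 14.3% and 2.75%, and Hsph1 in 2.04% and 8.24%, with overlapping intervals. Cells of 1 library are not replicates, so these shares describe the libraries only.

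Lists of related genes, written with earlier results of these data known, were described in ncMono-like cells at D14 over naive, each over its genes at 50 CPM or more. Of the cochaperones of HSP70 and HSP90, 10 of 19 were measured and 5 were higher, with 1 at least 2-fold higher. That gene was Fkbp5, an HSP90-bound immunophilin known for its induction by glucocorticoids, at 131, 151 and 556 CPM (log2 2.09, 1.87 to 2.31). Fkbp5 was also higher at D14 in T-like (1.57), B-like (2.61), NK-like (1.13) and cMono-like cells (1.04), less so in neutrophil-like cells (0.17), and in leukemia cells over D11 (1.14). The other 2 cochaperones with the largest absolute log2 ratios were Fkbp4 (-0.52) and Cacybp (0.37).

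Other chaperone families stayed within 2-fold in ncMono-like cells. Of 20 other J-domain genes, 13 were measured with a median log2 ratio of -0.01, among them Dnajb12 (-0.95), Dnajb14 (-0.91) and Dnajc2 (0.65). The cytosolic HSP90 gene Hsp90ab1 stood at 663, 854 and 911 CPM (0.46), and Hsp90b1 of the endoplasmic reticulum (ER) at 407, 205 and 285 CPM (-0.51). Among other HSP70 genes, the ER chaperone Hspa5 (BiP) stood at 440, 392 and 368 CPM (-0.26) and Hspa4 at a log2 ratio of 0.01. No small heat shock protein gene (0 of 9) reached the minimum, and of 4 heat shock factor genes only Hsbp1 did (0.07). Of the CCT chaperonin and prefoldin genes 9 of 11 were higher, by a median of 0.22, led by Tcp1 (0.54), Cct5 (0.38) and Cct8 (0.35).

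ER stress genes did not follow the cytosolic inducible genes in ncMono-like cells. There 3 of 11 measured genes of the ER unfolded protein response were higher and the median was -0.27, with the disulfide isomerases Pdia3 (278, 146 and 163 CPM, -0.77) and Pdia6 (-0.67) among the lowest. Other classes differed, with 10 of 13 higher in cMono-like (median 0.22), 7 of 10 in NK-like (0.27) and 8 of 12 in B-like cells (0.17). In neutrophil-like cells 5 of 8 were higher (0.05) and in T-like cells 4 of 9 (-0.04). In ncMono-like cells the remaining lists read as follows. Ubiquitin and proteasome genes had a median of 0.17 over 13 of 15 genes, with Vcp at 0.49 and Psmb1 at 0.37. Among the immediate early genes, Atf3 stood at 122, 86.9 and 34.6 CPM (-1.82), Klf2 stood at -0.62, and Nfkbia, the inhibitor of NF-kB, stood at 286, 582 and 616 CPM (1.11). In leukemia cells 2 of 14 CCT and prefoldin genes were higher at D14 than D11, with a median of -0.31.

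The likeness of other genes to the pair was described by Pearson's r of log2(CPM + 1) over 22 class and library sums of at least 50 cells, among 6794 genes. Sums of 1 library share their preparation and depth, and no p is given. For the Hspa1 pair the 10 most alike genes were Gm12703 (0.78), Pkd2, Fkbp5 (both 0.77), Adap1, Ggh, 2210408F21Rik (each 0.75), Gsr (0.74), Cyfip1, Bak1 (both 0.73) and Gyg (0.72). Of the other members Bag3 was most alike (0.66) and Hspe1 least (0.34). For summed Hspd1 and Hspe1 all 10 leading genes were at 0.99, namely Mrpl42, Mrpl12, Ipo5, Hdac2, Nme1, Rsl1d1, Tcp1, Pop5, Nolc1 and Eny2. Hsp90aa1 and Hsph1 were both at 0.90 to that pair.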

How the data were processed

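PB cells of 3 libraries were counted with the 10x Genomics 3′ v3 assay, and the authors deposited the filtered matrices of Cell Ranger, raw counts of UMIs per gene and barcode without normalization. Per the labels' processing notes the version was 7.1.0 and the build mm10, whereas the file headers name cellranger 5.0.1. Kept barcodes were classed by markers (minimum 3, set after the data were seen). Class sums had 356418 to 24992398 UMIs, and exact Poisson, conditional binomial and Clopper-Pearson intervals (scipy 1.17.1) cover counting error only. Ratios were described for classes of at least 40 cells. The floor was 3 counts. Barcodes were not cleared of doublets in the main values, and Scrublet (scanpy 1.11.5) was an alternative, as were TMM factors (edgeR 4.0.16, R 4.3.3). Scripts were tested on simulated data. Gene positions came from GENCODE M21.

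The members and lists were chosen with earlier results of these data known. Named were the 10 members, from each other list the 3 genes with the largest absolute log2 ratio in ncMono-like cells, and the 10 genes most like each pair. Ddit3, a symbol with more than 1 identifier, was left out, and 1 gene that the rule names is not reported here.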

Additional observations from a re-analysis of the deposited data

Results flagged for a closer look

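Hspd1 and Hspe1, the mitochondrial pair with a shared start region, took opposite signs in 2 classes of the same libraries. In T-like cells the log2 ratio of D14 over naive was -0.38 for Hspd1 and -0.56 for Hspe1, and in neutrophil-like cells it was 1.78 and 1.46. The difference between the classes was not tested, since each condition is 1 library, and the neutrophil-like naive values rest on 44 and 49 UMIs. With doublets removed the neutrophil-like values were 0.77 and 0.36. Among CD4 T-like cells Hspd1 was not lower, at 98.2 CPM in naive and 104 CPM at D14.

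The barcodes left out of every class also held Hspa1a and Hspa1b. In barcodes with over 10% mitochondrial UMIs and at least 200 genes the summed pair stood at 1.24 CPM in naive, 5.96 CPM at D11 and 73.5 CPM at D14, over 511, 562 and 1430 barcodes. In barcodes with under 200 genes it stood at 0.638, 0.610 and 8.96 CPM. At D14, 18 of the barcodes with high mitochondrial share passed the ncMono gate and held 755 CPM (614 to 918), below the 1157 CPM of the ncMono-like cells kept.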

How the results depend on the processing

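Over 56 results, 351 of 431 values under other settings stayed within counting error of the reported value, or within 1.5 times for counts. A further 78 moved further, and 2 changed sign where the main interval excluded no change. Sign changes of ratios whose main interval held no change are not among those 2. For Hsph1 and Dnajb1 in leukemia cells, 8 and 10 of 12 other settings kept the direction. For Hspe1 in ncMono-like cells 11 of 12 did. The log2 ratio of the Hspa1 pair kept its direction under every setting that gave a ratio in ncMono-like cells (5.61 to 7.57), neutrophil-like cells (3.25 to 4.15) and leukemia cells (1.70 to 3.26). Thinning to 1000 UMIs gave 5.61 in ncMono-like and 1.70 in leukemia cells, leaving out the 5% of cells richest in the pair gave 7.57 in ncMono-like cells, and Hspa1a alone gave 3.25 in neutrophil-like and 3.26 in leukemia cells. Only 9.74% of naive ncMono-like cells held a UMI of the pair. Leaving out the richest 5% thus took much of the naive count, so the 7.57 is no check of the main value. In naive neutrophil-like cells, where 2.94% held a UMI, it took all of them and gave no ratio. Thinning turned Bag3 in neutrophil-like cells to -0.44 and Dnaja1 in leukemia cells to 0.044, and the cause was not tested. The members at least 2-fold higher in ncMono-like cells numbered 2 instead of 4 with a minimum of 200 CPM, where 5 members remained and 3.93% of all genes passed. In neutrophil-like cells the count of 1 became 2 with cells of a single class only, with the mean of per-cell CPM, with thinning and without the top 5% of cells, and 3 with TMM factors. It was 4 of 8 with a minimum of 20 CPM (7.97% of all genes) and 0 of 3 with one of 200 CPM (6.62%). For the settings other than the minimum the share of all genes was not computed. Nothing is read from these counts. TMM factors shifted all log2 ratios by 0.15 in neutrophil-like, -0.14 in T-like and -0.17 in B-like cells, and by 0.12 for ncMono-like cells at D11. No paired analysis was possible because each condition is 1 library. Depth limits the naive Hspa1 values, which rest on 4 to 51 UMIs per class, and no setting can replace the missing replicates.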

Other observations

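The Hspa1 pair was also summed over kept barcodes outside the named classes. Kept barcodes with equal numbers of markers of 2 classes (36, 47 and 49 at naive, D11 and D14) stood at 2.16, 173 and 282 CPM, and kept barcodes with no class (54, 97 and 107) held 0, 14 and 41 UMIs, the last 2 at 54.6 and 170 CPM. At D14, ncMono-like cells with and without a UMI of the pair had medians of 9589 and 8828 UMIs, and neutrophil-like cells 5081 and 3674.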
